A study of Rattus norvegicus with 36 samples.

Results

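Scar fibroblasts grown from rat vocal fold (VF) mucosa were compared with naive fibroblasts grown from uninjured mucosa, on 7 of the 36 arrays of the series. The members were taken by their labels: 4 arrays of scar VF fibroblasts and 3 arrays of naive VF fibroblasts. Scar fibroblasts came from both VFs of male Fischer 344 rats whose mucosa had been stripped at an age of 120 d, harvested 60 d post-injury (PI) at an age of 180 d. Naive fibroblasts came from both VFs of age-matched male Fischer 344 rats that had no injury. Each culture was started from explants of 1 rat, fed with DMEM and serum, and lysed at 80% confluence in passage 1, and no sort for fibroblasts was described, so a culture held whatever cells grew out of the explants. Levels are log2 signals from Affymetrix arrays on one common scale, so that a difference of 1 is a 2-fold difference. A few other arrays were used beside these: 3 scar cultures given 50 nM siRNA against gp46 (Serpinh1), 3 scar cultures given scramble siRNA, and whole mucosa at 60 d PI and in age-matched controls. The siRNA cultures were lysed later than the other cultures, after a further day in fresh medium.

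The VF mucosa vibrates, and its pliability depends on the hyaluronan, collagen and elastin that fibroblasts deposit under the epithelium. After injury, fibroblasts divide and many take on a myofibroblast state, in which they build smooth-muscle actin bundles, contract the wound and lay down collagen. Cells taken from a scar and grown on plastic in serum have left that environment, and plastic and serum themselves favor division and contractile fibers, so the comparison shows how cultures of scar and naive origin differed on plastic. In bulk RNA of this kind, fewer cells of a type and less RNA per cell cannot be told apart.

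One scar culture stood apart. Over all genes, the array of scar replicate 4 lay at a root-mean-square distance of 0.432 from the other scar arrays and 0.362 from the naive arrays, and its nearest array was naive 2. Scar replicates 1 to 3 each lay nearer to their own group (0.464, 0.427 and 0.383 to scar arrays, against 0.487, 0.452 and 0.44 to naive arrays), although the nearest array of scar 3 was scar 4. Calls of genes and gene lists are therefore given with and without scar replicate 4. The differences between groups were tested with limma on all 13 culture arrays, with p-values adjusted over 14217 genes by the Benjamini-Hochberg method, and a gene was called below an adjusted p of 0.05. The p-values rest on the spread within all 4 groups of cultures, the siRNA cultures included, with 1 rat per culture. The fit treated the 13 arrays as independent. Whether gp46 and scramble siRNA cultures came from the same rats was not tested.

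Scar cultures expressed more of the genes of mitosis, more of several smooth-muscle contractile genes, and less of nearly the whole pathway of cholesterol synthesis than naive cultures. A regulatory background is known for the mitotic and cholesterol groups. Genes of the G2 and M phases share a promoter element, the cell cycle genes homology region (CHR), often beside CCAAT boxes bound by the factor NF-Y, and the genes of cholesterol synthesis are turned on by SREBP proteins together with NF-Y. Promoters of members of both groups are shown as the 200 bases before the start of the gene in RefSeq (build GRCr8), with capitals marking matches to CHR (TTTGAA or TTCGAA) or to the CCAAT box on either strand. Mki67 (chr1:199952594-199952793, minus strand) and Ccnb2 (chr8:79981659-79981858, minus strand) are shown as cell division genes with both motifs, and Tm7sf2 (chr1:212789542-212789741, minus strand) and Mvd (chr19:67414975-67415174, minus strand) as cholesterol genes with a CCAAT box alone.
Mki67: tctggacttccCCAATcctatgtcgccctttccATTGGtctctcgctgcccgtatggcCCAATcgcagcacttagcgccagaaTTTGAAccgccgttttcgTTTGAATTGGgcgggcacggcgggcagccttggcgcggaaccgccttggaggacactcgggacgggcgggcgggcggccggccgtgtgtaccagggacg
Ccnb2: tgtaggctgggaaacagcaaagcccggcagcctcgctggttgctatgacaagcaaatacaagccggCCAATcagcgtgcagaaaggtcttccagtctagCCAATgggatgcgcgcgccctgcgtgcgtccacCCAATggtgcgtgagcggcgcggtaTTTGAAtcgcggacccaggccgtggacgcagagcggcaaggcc
Tm7sf2: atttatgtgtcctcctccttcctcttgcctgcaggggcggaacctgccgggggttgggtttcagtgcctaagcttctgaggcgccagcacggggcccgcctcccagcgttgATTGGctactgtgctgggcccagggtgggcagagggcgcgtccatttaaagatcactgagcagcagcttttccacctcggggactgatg
Mvd: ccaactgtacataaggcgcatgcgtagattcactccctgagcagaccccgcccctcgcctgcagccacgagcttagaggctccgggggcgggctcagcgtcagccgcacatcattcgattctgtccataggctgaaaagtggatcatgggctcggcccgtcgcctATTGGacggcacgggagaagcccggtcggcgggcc

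In Mki67 the last CHR match and a CCAAT match on the other strand overlap by 1 base. A CHR match stood in 10 of the 23 cell division genes with a promoter window (43.5%), in 1 of 15 cholesterol synthesis genes (6.67%) and in 2 of 19 contractile genes (10.5%), beside 9.31% of the 11734 tested genes with a window. The CCAAT box stood in 18 of the 23 cell division genes (78.3%), in 13 of the 15 cholesterol synthesis genes (86.7%) and in 10 of the 19 contractile genes (52.6%), beside 30.9% of those 11734 genes. A sterol regulatory element spelled TCACNCCAC was found in 0 windows of these lists and in 0.801% of the tested genes. A match of letters is a description of the window and was not tested as a site.

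Between scar and naive cultures, 778 genes were called (5.47% of those tested), 374 higher in scar (2.63%) and 404 lower (2.84%). Without scar replicate 4, 1303 genes were called (9.17%), 681 higher (4.79%) and 622 lower (4.38%). Of these, 730 genes were called in both fits and always in the same direction, 48 only with scar replicate 4 (0.338% of those tested) and 573 only without it. The difference was larger without it for 613 of the 778 genes (78.8%). Scar arrays stood above all naive arrays for 370 of the 374 genes called higher and below them for 400 of the 404 called lower. Calls and overlap were read from the same arrays, so little overlap among called genes was built in. Among all genes, 9.96% had every scar array above all naive arrays and 8.53% had every scar array below them. Changes over 2-fold numbered 88 higher and 44 lower with scar replicate 4, and 144 higher and 69 lower without it. The median difference over all genes was 0.02. At an unadjusted p under 0.05 stood 2963 of the 14217 genes, the share to set beside such counts in the gene lists below.

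The number of calls depended on which arrays set the spread. The median SD of a gene was 0.152 over the scar cultures and 0.108 over the naive cultures, beside 0.111 in gp46 siRNA and 0.13 in scramble siRNA cultures. With the 7 scar and naive arrays alone, 131 genes were called, and 491 without scar replicate 4. Leaving out another single array gave between 189 genes (naive 2) and 600 genes (scar 1), with 276 without naive 1, 386 without naive 3, 480 without scar 2 and 386 without scar 3. Of the 778 genes, 156 were called in the same direction whichever of the 7 arrays was left out, and 91 of those also with the 7 arrays alone.

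**Figure D1:**
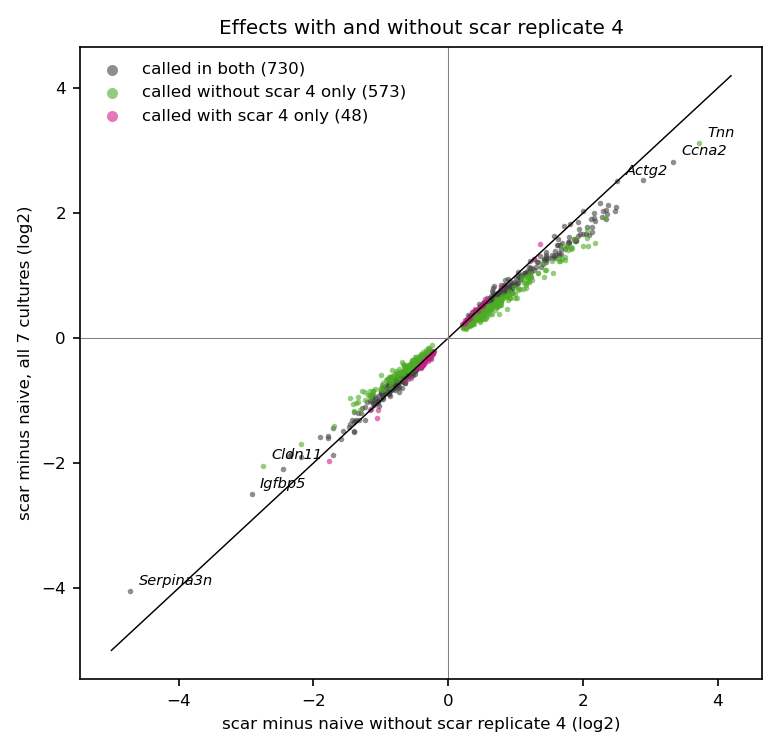
Differences between scar and naive cultures (log2) with all 7 cultures on the vertical axis and without scar replicate 4 on the horizontal axis, for each gene called in either fit, with the line of equal values. The 573 genes called only without scar replicate 4 and most of the 730 called in both lie on the side of the line where the difference is larger without it.

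The leading group among the genes higher in scar cultures was cell division. Of 26 measured genes of mitosis and of the G2 phase, 21 were called higher and 0 lower, with a median difference of 1.46 on the log2 scale (2.75-fold), and without scar replicate 4 these were 25 and 0 with a median of 1.70. All 26 differences were positive, and for 23 genes the groups did not overlap. Ccna2, the cyclin that drives S phase and entry into mitosis, had signals of 6.76, 7.94, 8.10 and 5.56 in scar cultures 1 to 4, against 4.43, 4.12 and 4.26 in naive cultures. Scar cultures 2 and 3 were highest and scar 4 was lowest of the scar cultures, yet more than 1 unit above each naive culture. The difference in Ccna2 was 2.82 (SE 0.47, 7.08-fold, limma adjusted p = 0.00885), and 3.33 without scar replicate 4 (adjusted p = 0.000279). Mki67, the proliferation antigen Ki-67, had 6.51, 7.79, 8.09 and 6.03 in scar cultures, against 4.55, 4.23 and 4.95 in naive cultures. The scar cultures stood in the same order as for Ccna2, and the groups did not overlap. The difference in Mki67 was 2.53 (SE 0.42, limma adjusted p = 0.00816), and 2.89 without scar replicate 4.

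Further members of the mitotic machinery followed the same order. Ccnb2, a cyclin of mitosis and one of the promoters shown, averaged 8.67 ± 0.76 in scar and 6.75 ± 0.21 in naive cultures (SD, n = 4 and 3), a difference of 1.92 (limma adjusted p = 0.00782), or 2.16 without scar replicate 4 (adjusted p = 0.00155). Ttk, the kinase of the spindle checkpoint, averaged 6.52 ± 0.91 in scar and 4.58 ± 0.41 in naive cultures (adjusted p = 0.0161, or 0.002 without scar replicate 4), and another probe set of Ttk did not pass. Cdk1, the kinase that these cyclins switch on, averaged 9.20 ± 0.53 in scar and 7.45 ± 0.17 in naive cultures and was picked after its values were seen (limma adjusted p = 0.0034, or 0.000609 without scar replicate 4). Other dividing-cell genes outside that list stood among the 12 largest rises. Pclaf, a PCNA-binding protein, was 4.16-fold higher (limma adjusted p = 0.00526), Kif20b, a kinesin of cell separation, 4.3-fold (adjusted p = 0.0145), and Depdc1 4.11-fold (adjusted p = 0.0243). Hmmr, the hyaluronan receptor RHAMM that also sits on the spindle, was 3.44-fold higher (adjusted p = 0.013). Pclaf was 5.05-fold, Kif20b 5.62-fold, Depdc1 5.55-fold and Hmmr 4.18-fold higher without scar replicate 4, all called.

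The genes of DNA replication moved less than those of mitosis. Of 26 measured, 2 were called higher and 0 lower, with a median difference of 0.27, and without scar replicate 4 these were 10 and 0. The 2 were Uhrf1, which carries DNA methylation through replication, at 6.99, 8.22, 8.30 and 6.37 in scar cultures against 5.42, 5.21 and 5.82 in naive cultures (limma adjusted p = 0.0162), and Ccne1, cyclin E1, with a difference of 0.59 (adjusted p = 0.0434). Uhrf1 differed by 2.35 and Ccne1 by 0.67 without scar replicate 4, both called. The groups did not overlap for either gene. Over each list, the median deviation from the naive mean was 1.09, 1.94, 2.11 and 0.71 in scar cultures 1 to 4 for cell division, and 0.15, 0.52, 0.41 and 0.03 for DNA replication. Scar 4 was therefore within the naive spread for replication genes, whose naive deviations reached 0.066, and above it for cell division genes.

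The cell division calls depended on which array was left out. Leaving out naive 1, 2 or 3 left 10, 5 or 13 of the list called, and leaving out scar 1, 2 or 3 left 20, 14 or 15. Ccna2, Ccnb2, Cdk1, Mki67 and Nuf2 (named after their values were seen, apart from Ccna2, Ccnb2 and Mki67) were called in all 7 such fits, and with the 7 arrays alone 2 members were called, or 16 without scar replicate 4. Ttk and Hmmr lost their calls without naive 1 or naive 2, Kif20b without naive 2, and Depdc1 without any 1 of the naive arrays or scar 3. Of the 2 replication calls, Uhrf1 lost its call without naive 1 or 2, and Ccne1 whenever an array other than scar 4 was left out.

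Naive cultures expressed more of the cholesterol pathway, which makes sterols from acetyl-CoA in every dividing cell and is shut when sterol is plentiful. Of 19 measured genes, 0 were called higher and 15 lower in scar cultures, with a median difference of -0.69, and without scar replicate 4 these were 0 and 17 with a median of -0.81. All 19 differences were negative, and for 17 the groups did not overlap. Tm7sf2, a sterol reductase late in the pathway, had 10.97, 10.46, 10.55 and 11.43 in scar cultures, against 12.42, 12.45 and 12.46 in naive cultures. The naive cultures agreed within 0.04 and every scar culture was about 1 unit or more below them, scar 4 the least. The difference in Tm7sf2 was -1.59 (SE 0.19, 3.02-fold lower in scar, limma adjusted p = 0.00206), and -1.79 without scar replicate 4. Mvd, which makes isopentenyl diphosphate from mevalonate, had 10.45, 10.14, 10.26 and 10.52 in scar cultures, against 11.46, 11.25 and 11.32 in naive cultures. The scar cultures lay close together here, scar 4 included, and the difference in Mvd was -1.0 (SE 0.11, limma adjusted p = 0.00144), or -1.06 without scar replicate 4.

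The fall ran along the pathway. Ebp, a sterol isomerase, averaged 10.17 ± 0.36 in scar and 11.14 ± 0.04 in naive cultures (limma adjusted p = 0.00697), and Sc5d, the desaturase after it, averaged 10.14 ± 0.26 in scar and 11.07 ± 0.04 in naive cultures (adjusted p = 0.00782). Their differences without scar replicate 4 were -1.12 and -1.04, both called. The other called members, Mvk, Idi1, Fdft1, Sqle, Lss, Cyp51, Msmo1, Nsdhl, Hsd17b7, Dhcr7 and the feedback protein Insig1, differed by between -0.85 (Lss) and -0.43 (Fdft1). The 4 that were not called were Pmvk (-0.32), Fdps (-0.29), the sterol carrier Stard4 (-0.30) and Srebf2 (-0.02), the gene of the transcription factor that drives the pathway. All of these single members other than Tm7sf2, Mvd, Ebp and Sc5d were named after their values were seen. Between 10 and 17 members were called when any single array was left out, 10 of them in all 7 fits, and 9 with the 7 arrays alone. The median deviation over the list was -0.71, -0.85, -0.82 and -0.46 in scar cultures 1 to 4, again smallest in scar 4.

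Of 25 contractile genes, those of the actin and myosin fibers that myofibroblasts share with smooth muscle, 9 were called higher and 0 lower in scar cultures, with a median difference of 0.35, and without scar replicate 4 these were 14 and 0 with a median of 0.42. The differences were positive for 24 genes and the groups did not overlap for 17. Cnn1, calponin, which binds actin in smooth muscle, had 11.67, 12.37, 11.999 and 11.73 in scar cultures, against 9.80, 10.39 and 10.05 in naive cultures. Scar and naive cultures were more than 1 unit apart and scar 4 lay inside the scar range. The difference in Cnn1 was 1.86 (SE 0.23, 3.64-fold, limma adjusted p = 0.00252), or 1.93 without scar replicate 4. Actg2, the gamma actin of smooth muscle, had 10.62, 12.97, 13.38 and 12.34 in scar cultures, against 10.07, 9.55 and 9.82 in naive cultures. Scar 1 was only slightly above the highest naive culture, and the other scar cultures were far above it. The difference in Actg2 was 2.51 (SE 0.56, limma adjusted p = 0.0275), the same without scar replicate 4 (adjusted p = 0.0342). Skeletal muscle genes, given further on, also varied between these cultures, with a list median of 0.50.

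Myh11, the heavy chain of smooth-muscle myosin, had 11.41, 11.26, 11.12 and 10.60 in scar cultures, against 8.50, 9.72 and 9.08 in naive cultures. The groups did not overlap, and the difference was 2.00 (limma adjusted p = 0.0341), or 2.17 without scar replicate 4 (adjusted p = 0.0254), though a second probe set of Myh11 did not show it. Lmod1, a nucleator of actin filaments, was 1.8-fold higher (adjusted p = 0.0304), or 1.92-fold without scar replicate 4. Acta2, the smooth-muscle actin by which myofibroblasts are usually recognised, was looked at after its values were seen. It had 13.59, 13.61, 13.54 and 12.87 in scar cultures, against 12.24, 12.63 and 12.36 in naive cultures. The groups did not overlap, but with scar 4 far below the other scar cultures the difference of 0.99 had a limma adjusted p of 0.0546, and without scar replicate 4 it was 1.17 (adjusted p = 0.0189). Contractile calls fell to 2, 3 or 2 genes without naive 1, 2 or 3, and to 7, 3 or 3 without scar 1, 2 or 3. Cnn1 and Vcl (vinculin, named after its values were seen) were called in all 7 of these fits, and 2 members were called with the 7 arrays alone. Actg2 and Lmod1 each lost their call without any 1 naive array, scar 2 or scar 3, and Myh11 when any array except scar 4 was left out.

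**Figure D2:**
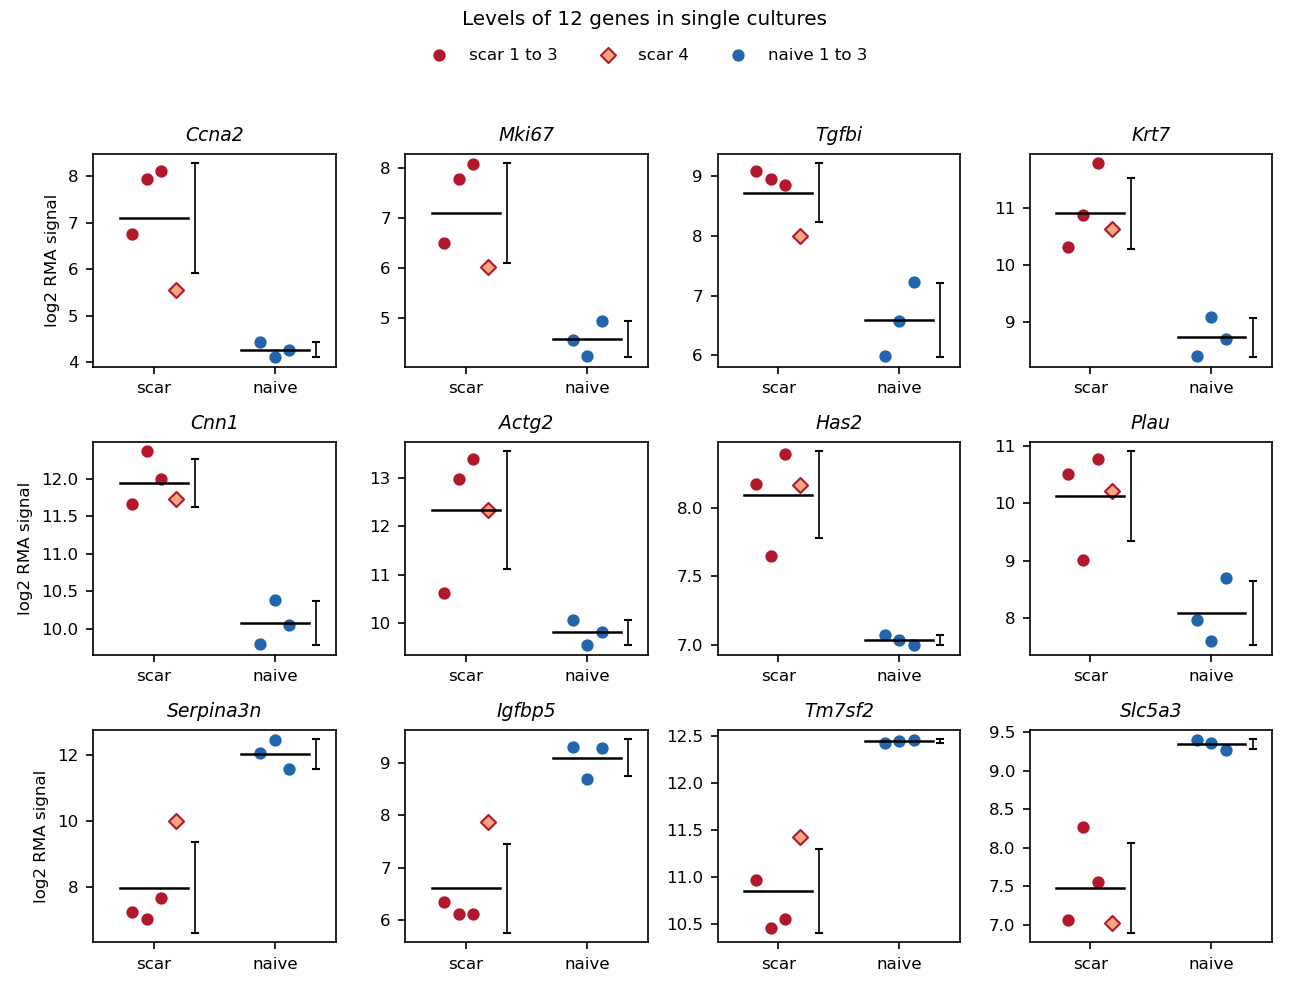
Log2 signal of 12 genes in single scar (left) and naive (right) cultures, each panel with its own vertical axis; horizontal lines are group means and bars the mean ± SD. Scar 4, drawn as a diamond, lies between the other scar cultures and the naive cultures for Ccna2, Serpina3n and Igfbp5, and within the scar range for Cnn1, Has2 and Plau.

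**Figure D3:**
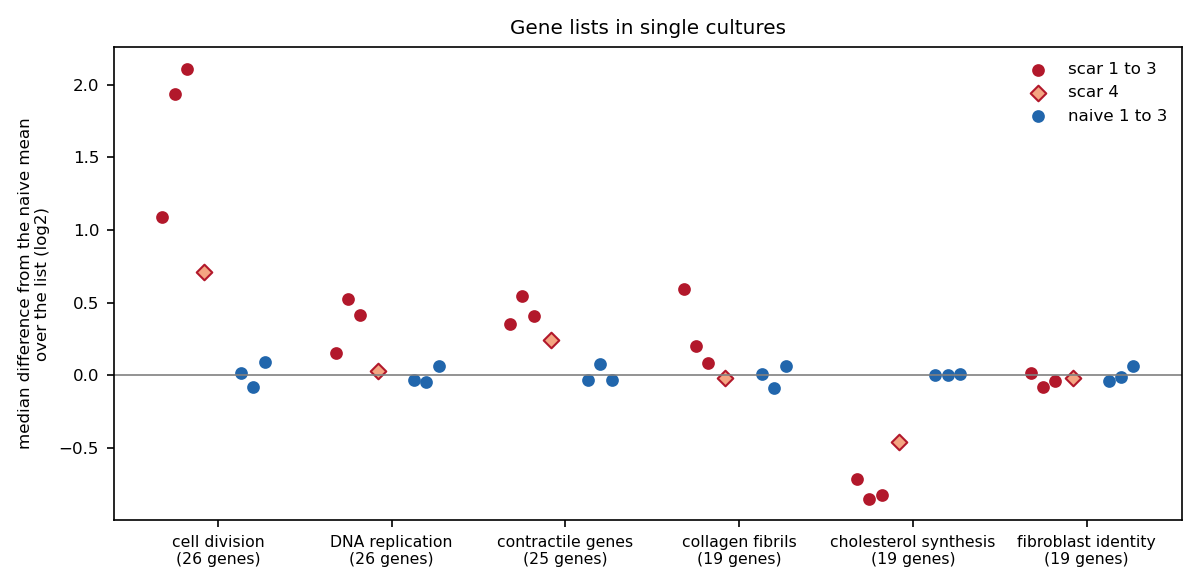
Median difference from the naive mean (log2) over the genes of 6 lists in each scar and naive culture. Cell division genes reach 2.11 in scar 3 and 0.71 in scar 4, cholesterol synthesis genes lie between -0.85 and -0.46 in the scar cultures, and fibroblast identity genes stay near 0 in all 7.

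Fibrillar collagens are the main product of a scar. Of 19 genes of fibrillar and associated collagens, 1 was called higher and 0 lower, with a median difference of 0.37, and without scar replicate 4 these were 8 and 0 with a median of 0.56. The differences were positive for 15 of the 19, and 10 had an unadjusted p under 0.05, beside 2963 of all 14217 genes. Col14a1, a collagen that coats fibrils, had 12.13, 12.13, 12.04 and 12.39 in scar cultures, against 11.12, 11.31 and 11.32 in naive cultures. All scar cultures were above the naive cultures, scar 4 highest, and the difference in Col14a1 was 0.92 (SE 0.18, limma adjusted p = 0.0141), or 0.85 without scar replicate 4 (adjusted p = 0.0197). The call was lost without naive 1 or naive 2, and a second probe set did not show it. Col1a1, Col1a2 and Col3a1, the bulk collagens, were picked after their values were seen. They had signals of 14.22 or more in every culture, Col1a2 reached the highest value in the table (14.743) in scar 1 and scar 2, and at such signals the arrays may not resolve differences, so none is given. The 8 called without scar replicate 4 included Col6a3, a chain of the pericellular collagen VI that was also picked for its values. Col6a3 had 11.14, 10.54, 9.30 and 8.69 in scar cultures, against 8.87, 7.57 and 7.55 in naive cultures, and the groups overlapped through scar 4 and naive 1. Its difference was 1.92 (limma adjusted p = 0.0592), or 2.33 without scar replicate 4 (adjusted p = 0.0144). Serpinh1, the collagen chaperone gp46 that the siRNA of the series targets, had 13.38, 13.56, 13.42 and 13.16 in scar cultures, against 13.12, 13.09 and 13.20 in naive cultures. Scar 4 fell inside the naive range, and the difference of 0.24 did not pass with it (limma adjusted p = 0.159) and did without it (0.32, adjusted p = 0.0343). Adjusted over all probe sets, that difference without scar replicate 4 did not pass (limma adjusted p = 0.0515). A second probe set of Serpinh1 differed by 0.13 (limma adjusted p = 0.736 over all probe sets), or 0.23 without scar replicate 4 (adjusted p = 0.383).

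Other matrix genes moved one by one rather than as groups. Of 29 genes of hyaluronan and the proteoglycans 4 were called higher and 0 lower, Hmmr among them, with a list median of 0.13, and the same counts without scar replicate 4. Has2, the main hyaluronan synthase of fibroblasts, had 8.17, 7.65, 8.39 and 8.16 in scar cultures, against 7.07, 7.03 and 7.0 in naive cultures. The naive cultures were nearly equal and all scar cultures lay above them. The difference in Has2 was 1.06 (SE 0.20, 2.08-fold, limma adjusted p = 0.0128), or 1.04 without scar replicate 4 (adjusted p = 0.0174), and lost without naive 2 (highest adjusted p over the 7 fits 0.0553). Sdc1, the surface proteoglycan syndecan-1, was 2.02-fold higher (limma adjusted p = 0.00345) and called whichever array was left out, and Srgn, the proteoglycan core serglycin, was 2.49-fold higher (adjusted p = 0.0221, lost without any 1 naive array). Sdc1 was 2.2-fold and Srgn 2.57-fold higher without scar replicate 4, both called.

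Of 23 adhesive and matricellular genes 1 was called higher and 0 lower, with a list median of 0.04, and 2 and 0 without scar replicate 4. With all arrays it was Tgfbi, a TGF-beta-induced adhesion protein, with 9.08, 8.96, 8.84 and 7.99 in scar cultures, against 5.99, 6.57 and 7.22 in naive cultures. Scar 4 was the lowest scar culture and naive 3 the highest naive culture, with no overlap. The difference in Tgfbi was 2.12 (SE 0.31, 4.36-fold, limma adjusted p = 0.00464), or 2.37 without scar replicate 4 (adjusted p = 0.001). Tnn, tenascin N, differed by 3.12 with a wide spread, at 10.90, 12.11, 10.60 and 8.81 in scar cultures, against 6.98, 7.18 and 8.28 in naive cultures. The groups did not overlap, with scar 4 near naive 3. The difference did not pass with scar replicate 4 (limma adjusted p = 0.0647) and did without it (3.72, adjusted p = 0.0215). Among 35 matrix proteases and inhibitors 2 were called higher and 1 lower, and 3 and 2 without scar replicate 4. Plau, urokinase, was 4.1-fold higher (limma adjusted p = 0.0118, or 0.0155 without scar replicate 4), at 10.51, 9.01, 10.77 and 10.22 in scar cultures and 7.96, 7.61 and 8.70 in naive cultures. Its groups did not overlap, with scar 2 nearest to the naive cultures, and it lost its call without naive 1 or 2. Adamts4, an aggrecan-cutting protease, was 1.53-fold higher (adjusted p = 0.00578), and Mmp14, a membrane collagenase, 1.33-fold lower (adjusted p = 0.0261, lost without any 1 naive array, scar 2 or scar 3). Adamts4 was 1.58-fold higher and Mmp14 1.36-fold lower without scar replicate 4, both called. In collagen processing (20 measured), basement membrane (20), elastic fibers (16) and integrins (17), limma called 0 genes. At an unadjusted p under 0.05 they held 5, 5, 4 and 1 genes, beside 2963 of all 14217 genes. The lognormal-normal model that the study applied to mucosa called 0 in each. Without scar replicate 4, limma called 1, 3, 1 and 0 of them, all higher.

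The called gene with the largest fall was Serpina3n, a secreted inhibitor of serine proteases. It had 7.23, 7.04, 7.66 and 10.00 in scar cultures, against 12.06, 12.46 and 11.57 in naive cultures. Scar 4 lay about midway between the other scar cultures and the naive cultures. The difference in Serpina3n was -4.05 (SE 0.59, 16.5-fold lower in scar, limma adjusted p = 0.00489), and -4.72 without scar replicate 4 (adjusted p = 0.000112). Igfbp5, a binding protein that holds insulin-like growth factors in the matrix, had 6.34, 6.11, 6.10 and 7.87 in scar cultures, against 9.32, 8.69 and 9.29 in naive cultures. Again scar 4 was the nearest to the naive cultures, and the difference of -2.50 (limma adjusted p = 0.00971) grew to -2.92 without it. Slc5a3, the transporter that brings in myo-inositol, had 7.07, 8.27, 7.56 and 7.01 in scar cultures, against 9.40, 9.36 and 9.27 in naive cultures. Here scar 4 was the lowest of all, and the difference was -1.87 (limma adjusted p = 0.0034), or -1.71 without scar replicate 4. A second probe set of Slc5a3 differed by -0.29 and did not pass (limma adjusted p = 0.0629 over all probe sets).

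The remaining large falls were of mixed function. S100b, a calcium-binding protein of Schwann cells and fat cells, was 3.76-fold lower (limma adjusted p = 0.0111), Trpc4, a calcium channel, 3.06-fold (adjusted p = 0.00679), Myo7b, an unconventional myosin, 2.95-fold (adjusted p = 0.00389), and Epha3, an ephrin receptor, 2.83-fold (adjusted p = 0.00513). Each of these kept its call whichever array was left out, and without scar replicate 4 they were 4.55-fold, 3.01-fold, 3.43-fold and 2.63-fold lower. Cpxm2, a carboxypeptidase-like protein, was 4.25-fold lower (adjusted p = 0.0167) but not without naive 1 or naive 2, and Ptgis, prostacyclin synthase, 2.99-fold lower (adjusted p = 0.0405) but not when any array except scar 4 was left out. Cpxm2 was 5.47-fold and Ptgis 3.74-fold lower without scar replicate 4. Aqp1, a water channel, had 10.05, 10.15, 10.00 and 11.98 in scar cultures, against 11.99, 12.88 and 12.36 in naive cultures. Scar 4 was at the naive level, and the call (limma adjusted p = 0.0263, or 0.000279 without scar replicate 4) was lost when any other array was left out. Apoe, the lipid carrier, had the same shape, 10.06, 9.87, 9.93 and 11.87 in scar cultures against 12.38, 12.83 and 11.74 in naive cultures, so that the groups overlapped (limma adjusted p = 0.041, or 0.00214 without scar replicate 4 with a difference of -2.37). The Apoe call was lost when any array except scar 4 was left out (highest adjusted p 0.162), and a second probe set differed by near 0. H4f3, a histone H4 gene, was 3.91-fold lower (adjusted p = 0.0364), with naive 3 at 10.01 beside 7.46 and 8.0 in the other naive cultures. The H4f3 call was lost without naive 2, scar 2, scar 3 or scar 4 (adjusted p = 0.0527 without scar 4). Cldn11, a claudin of tight junctions, was called on the probe set used here only without scar replicate 4 (-2.75, limma adjusted p = 0.000112), since scar 4 stood at 10.26, inside the naive range of 10.00 to 10.31, while the other scar cultures were between 7.10 and 7.92. A second probe set of Cldn11 differed by -1.87 with all 7 arrays (limma adjusted p = 0.0325 over all probe sets), or -2.39 without scar replicate 4.

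Among the largest rises that belong to no list above, Krt7, a keratin of simple epithelia, had 10.32, 10.88, 11.77 and 10.63 in scar cultures, against 8.41, 9.09 and 8.71 in naive cultures. All scar cultures were more than 1 unit above the highest naive culture. The difference in Krt7 was 2.16 (SE 0.31, 4.48-fold, limma adjusted p = 0.00389), or 2.25 without scar replicate 4, and was called in every fit that left out an array. Mpzl2, an adhesion protein of epithelia, was 4.08-fold higher (limma adjusted p = 0.0239, or 0.0102 without scar replicate 4), a call lost without any 1 naive array, scar 2 or scar 3. Other epithelial markers did not follow: 0 of 19 were called (limma; 2 at an unadjusted p under 0.05, 0 with the lognormal-normal model), and their mean level was between 5.41 and 5.77 in scar cultures and between 5.57 and 5.60 in naive cultures, beside 12.37 in control mucosa.

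Signaling and stress genes gave scattered calls. In the BMP group 1 of 31 was called higher (2 higher and 2 lower without scar replicate 4). It was Nog, the BMP antagonist noggin, with 10.09, 10.59, 10.45 and 9.79 in scar cultures against 8.98, 8.72 and 9.17 in naive cultures (limma adjusted p = 0.0115, or 0.00422 without scar replicate 4, lost without naive 2). Scar 4 was again the lowest scar culture, above every naive culture. Of 48 growth factors and receptors 1 was called higher and 3 lower: Hbegf, an EGF-like factor, was 1.84-fold higher (adjusted p = 0.0211), and beside Igfbp5 the angiogenic factor Vegfb was 1.68-fold lower (adjusted p = 0.0059) and the neurotrophic factor Nrtn 1.33-fold lower (adjusted p = 0.0444). The list had the same counts without scar replicate 4, with Hbegf 2.02-fold higher, Vegfb 1.79-fold lower and Nrtn 1.35-fold lower. Hbegf lost its call without any 1 naive array or scar 3, and Nrtn without naive 2, naive 3, scar 1, scar 2 or scar 3. Nrtn signals were low, between 5.76 and 6.54 in the scar and naive cultures. In TGF-beta signaling (21 measured), Wnt signaling (30) and Notch and YAP targets (22), limma called 0 genes, and the lognormal-normal model called 0. At an unadjusted p under 0.05 they held 1, 6 and 7 genes, beside 2963 of all 14217 genes. Without scar replicate 4 the limma calls in these lists were 0, 1 and 3, all higher.

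Of 40 cytokines and chemokines 1 was called higher, Csf2, which drives myeloid cells, by 0.44 (limma adjusted p = 0.0475, or 0.0584 without scar replicate 4). A second probe set of Csf2 did not pass. Csf2 signals were low, from 6.013 to 6.438 in scar and from 5.696 to 6.007 in naive cultures. These were little above the mean levels of epithelial markers there (5.41 to 5.77 and 5.57 to 5.60). Without scar replicate 4 the list held 0 calls higher and 1 lower. Ptgs2, the inducible cyclooxygenase, had 11.25, 11.59, 11.81 and 11.35 in scar cultures, against 10.63, 10.67 and 10.33 in naive cultures. No scar culture overlapped the naive range, and the difference in Ptgs2 was 0.96 (SE 0.15, limma adjusted p = 0.00763), 1.0 without scar replicate 4, and called whichever array was left out. With Ptgis lower, the 17 genes of prostaglandins and lipid mediators held 1 call in each direction, with and without scar replicate 4. Of 28 interferon response genes 2 were called lower, Ifit3 (-0.74, adjusted p = 0.0488) and Stat2 (-0.41, adjusted p = 0.0461), both lost when any array except scar 4 was left out. With scar replicate 4 left out the list had 4 called lower, Ifit3 at -0.90 and Stat2 at -0.45. Ifit3 signals were low, between 4.53 and 5.73 in the scar and naive cultures. In complement (15 measured) and MHC class II (8), limma called 0 genes, 1 gene in each had an unadjusted p under 0.05, and the lognormal-normal model called 0, while 2 complement genes were called lower without scar replicate 4.

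Ddit3, the stress factor CHOP, had 10.20, 10.27, 10.07 and 10.39 in scar cultures, against 11.13, 11.19 and 11.39 in naive cultures. The groups were well separated and the difference in Ddit3 was -1.0 (SE 0.12, limma adjusted p = 0.00252), or -1.06 without scar replicate 4. Of 25 genes of the unfolded protein response it was the only 1 called lower, and Asns, asparagine synthetase, the only 1 called higher (1.28-fold, adjusted p = 0.0179, lost without naive 1 or 2), while 1 was called higher and 2 lower without scar replicate 4. Of 23 antioxidant genes 3 were called lower, Gsta4 (-0.52), Me1 (-0.33) and Gpx4 (-0.23), with limma adjusted p of 0.0383, 0.0459 and 0.0484, and each lost its call without at least 5 of the 7 arrays in turn. The list also had 3 called lower without scar replicate 4, Gsta4 (-0.57) and Me1 (-0.26) among them but not Gpx4 (limma adjusted p = 0.0534). A second probe set of Gpx4 had the opposite sign, 0.19 (limma adjusted p = 0.362 over all probe sets). Of 22 genes of glycolysis and hypoxia 1 was called higher, Pfkl, a phosphofructokinase (1.46-fold, adjusted p = 0.00813), and 2 without scar replicate 4. Of 45 positional transcription factors 1 was called higher, Msx1 (1.71-fold, adjusted p = 0.0248, lost without any 1 naive array, scar 2 or scar 3), and without scar replicate 4 these were 1 higher and 4 lower. In cell cycle arrest and senescence (18 measured), retinoid metabolism (18) and immediate early genes (22), limma called 0 genes, and the lognormal-normal model called 0. At an unadjusted p under 0.05 they held 5, 3 and 2 genes, beside 2963 of all 14217 genes. Without scar replicate 4 the limma calls in these lists were 4, 3 and 1, all lower.

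Among 17 clock genes 1 was called in each direction, and 2 higher and 3 lower without scar replicate 4. Per2, a repressor of the clock, had 9.41, 9.24, 9.10 and 8.85 in scar cultures, against 8.49, 8.18 and 8.21 in naive cultures. All scar cultures stood above the naive cultures, and the difference in Per2 was 0.85 (SE 0.14, limma adjusted p = 0.00813), or 0.95 without scar replicate 4, though a second probe set did not show it. Tef, a clock-controlled factor, was 1.5-fold lower (adjusted p = 0.0168, or 0.0226 without scar replicate 4), also with a second probe set that did not pass, and lost its call without naive 2 or 3. The hour at which cultures were lysed is not given in the sources used here.

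The label of fibroblasts was checked against marker genes. Over all genes, 2963 of 14217 had an unadjusted p under 0.05 in the limma fit. Of 19 fibroblast genes 0 were called (limma; 4 at an unadjusted p under 0.05, 0 with the lognormal-normal model), with a median difference of -0.01 and 1 call, lower, without scar replicate 4, and their mean level was between 11.33 and 11.60 in scar cultures and between 11.56 and 11.59 in naive cultures, beside 10.86 to 10.94 in control mucosa. Macrophage genes had mean levels of 5.78 to 6.26 in scar cultures and 5.99 to 6.27 in naive cultures, against 11.08 to 11.47 in control mucosa. Vim, vimentin, was above 14 in all 7 cultures. Of 10 pericyte and smooth-muscle markers 3 were called higher, Actg2, Myh11 and Lmod1, which are also on the contractile list (4 without scar replicate 4), and their part in the contractile result was not tested. S100b was the only 1 of 7 Schwann cell genes called, and Lck (-0.31, limma adjusted p = 0.0403, or 0.0535 without scar replicate 4) the only 1 of 8 lymphocyte genes. In glands, ciliated cells, endothelium, macrophages, mast cells, cartilage cells, fat cells, and neurons and melanocytes, limma called 0 genes, while 1, 0, 2, 1, 0, 1, 0 and 0 had an unadjusted p under 0.05. The lognormal-normal model called 1 of these, the macrophage marker Cd14, whose limma adjusted p was 0.0759. Without scar replicate 4, limma called 1 endothelial gene and 1 gene of neurons and melanocytes, both lower, and 0 in the other 6.

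Skeletal muscle genes varied widely between cultures of both groups. Myh3, the embryonic myosin of forming muscle fibers, had 13.34, 6.30, 11.19 and 8.16 in scar cultures, against 9.95, 7.46 and 11.63 in naive cultures. Myog and Myod1, factors of the muscle lineage, followed the same pattern, with Myog (picked after its values were seen) at 12.20, 5.85, 10.37 and 7.70 in scar cultures and 9.15, 5.98 and 9.98 in naive cultures. Scar 1, scar 3 and naive 3 were high, scar 2 and naive 2 low, and the groups overlapped fully. Of 25 muscle genes limma called 0 (1 at an unadjusted p under 0.05, 0 with the lognormal-normal model), and 0 without scar replicate 4. The differences were positive for 22 of the 25, with a median of 0.50, or 0.89 without scar replicate 4. The difference was 0.07 in Myh3 (limma adjusted p = 0.987), 1.62 in Myh2, a myosin of fast fibers (adjusted p = 0.197), and 1.77 in Acta1, the actin of skeletal muscle (adjusted p = 0.291), the last 2 named after their values were seen. Over the list the median deviation from the naive mean was 2.93, -1.33, 0.86 and -0.65 in scar cultures 1 to 4 and 0.05, -1.20 and 1.21 in naive cultures. The mean level of the list was 10.63 in scar 1, near the 10.07 to 10.10 of control mucosa, and 6.62 in naive 2. The part of these cells in the contractile and other results was not tested.

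**Figure D4:**
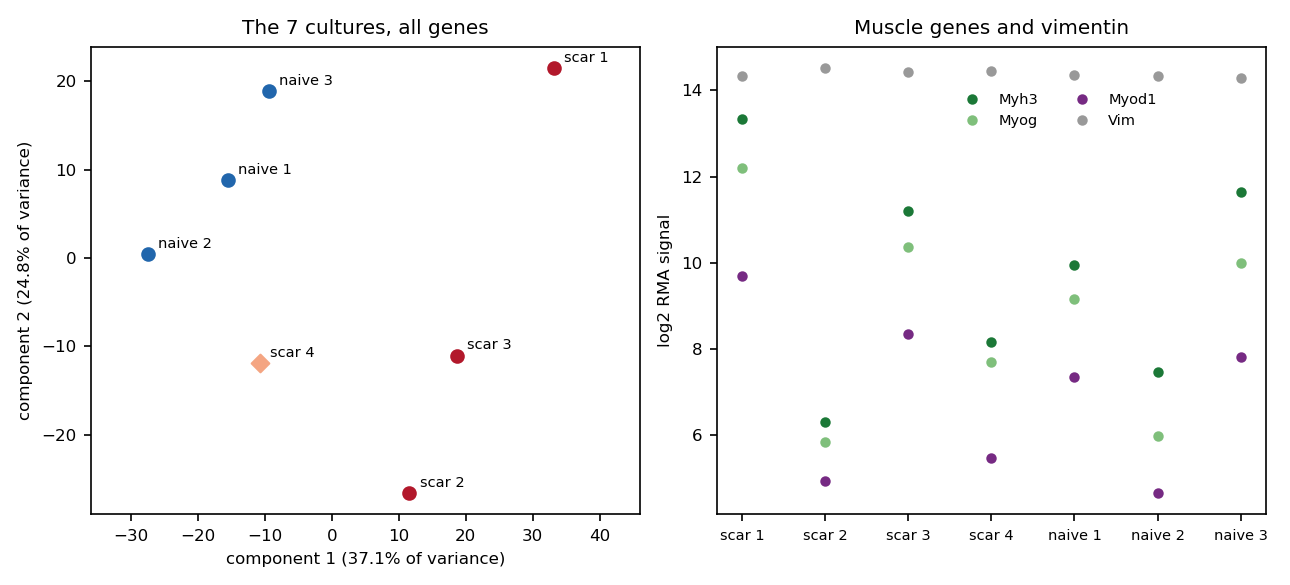
Left, principal components 1 and 2 of the 7 cultures over all genes (37.1% and 24.8% of the variance): scar 1 to 3 lie at positive values of component 1, and scar 4 lies at -10.83 on the side of the naive cultures. Right, log2 signal of Myh3, Myog, Myod1 and Vim in each culture, with Myh3 between 6.30 and 13.34 and Vim above 14 throughout.

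Scar 4 lay about midway between the groups for the median gene called without it. Over all genes, as given above, scar 4 was nearer to the naive arrays. Over the 1303 genes called without it, its level was nearer to the mean of the other scar cultures for 48.6%, and the median gene had gone 0.483 of the way from the naive mean to the mean of the other scar cultures. That fraction was 0.401 for 25 cell division genes, 0.097 for 10 DNA replication genes and 0.563 for 17 cholesterol synthesis genes. All these genes were picked by the difference of the other scar cultures from the naive cultures. Some shortfall in a culture left out was therefore built in. The same fraction for another scar culture left out was not computed. Scar 4 also held genes that set it apart from the other 6 cultures. Il1rn, the interleukin-1 receptor antagonist, was at 10.96 in scar 4, against a range of 7.30 to 8.79 in the others, and Vcam1, an adhesion molecule for leukocytes, at 8.45 against 5.49 to 7.09. On the low side, Rasl10a, a Ras-like GTPase, was at 4.85 against 6.13 to 6.93, and Adamts8, a metalloprotease, at 5.77 against 6.86 to 9.28. These genes were chosen by their distance in scar 4 and carry no test.

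The siRNA cultures were also scar fibroblasts of passage 1, and their values are set beside these with no test, since they were transfected and lysed later. Ccna2 was between 10.12 and 10.43 in gp46 siRNA cultures and between 10.02 and 10.49 in scramble siRNA cultures, above each untransfected scar culture. The mean level of the cell division list was between 10.22 and 10.47 with gp46 siRNA and between 10.23 and 10.46 with scramble siRNA. Tm7sf2 was between 9.02 and 9.12 in gp46 siRNA cultures and between 8.89 and 9.18 in scramble siRNA cultures, below each untransfected culture. Acta2 was between 10.24 and 11.21 with gp46 siRNA and between 10.38 and 11.12 with scramble siRNA, also below each untransfected culture, and Cnn1 was between 9.96 and 10.66 with gp46 siRNA and between 10.04 and 10.64 with scramble siRNA, at about the naive level. Ccna2 thus stood high where Acta2 stood low in these transfected cultures, while in scar 2 and scar 3 both were high. Serpina3n was between 6.08 and 7.07 with gp46 siRNA and between 6.12 and 6.88 with scramble siRNA, while Aqp1 was at 11.73 to 12.22 and 11.98 to 12.39, the naive level.

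The scar from which the cultures came can be set beside them, since the series holds whole mucosa at 60 d PI (5 arrays by their labels) and in age-matched controls (2 arrays), with 4 rats pooled on each. The methods of the study give 1 fewer PI array and 1 more control array, so an array labelled PI may be a control. The labels were followed, and every mucosa value below rests on them. In mucosa 32 genes were called (0.225%), and 7 genes were called both there and in cultures: Jcad, Nrtn, Per2, Rassf4, Slc2a6, Tef and Zfand2a. Across all genes the effects in cultures and in mucosa had a correlation of 0.063, and of 0.144 across the 778 genes called in cultures, where genes are not independent replicates. The sign was shared by 54.1% of the called genes, beside 49.8% of all genes.

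The difference between the culture effect and the mucosa effect was itself tested with limma over all 36 arrays. It was called for 266 genes (1.87%), 162 with the larger value in cultures and 104 with the smaller, and for 531 (3.73%) without scar replicate 4. It rested on few control arrays: 39 genes were called without the first control array, 85 without the second, 133 without naive 2, 160 without scar 3, and 19 with the 14 arrays of these groups alone. Of the 778 genes called in cultures, 198 differed from their mucosa effect. Those 778 were picked by the scar minus naive difference that is part of this contrast, so a raised share was built in. Per2 was higher in scar cultures and lower in PI mucosa (-1.02, limma adjusted p = 0.0063), a difference of 1.88 (limma adjusted p = 2.31e-05). Tgfbi differed by 2.56 (adjusted p = 2.31e-05) and Krt7 by 2.75 (adjusted p = 0.000657). The culture differences were 2.12 in Tgfbi and 2.16 in Krt7, and the mucosa values were -0.43 and -0.58, which did not pass. Cnn1 differed by 2.22 (adjusted p = 0.00219), Has2 by 1.30 (adjusted p = 0.00225) and Tm7sf2 by -1.46 (adjusted p = 0.00189). For Per2, Tgfbi, Krt7, Cnn1, Has2 and Tm7sf2 the difference passed whichever of the 14 arrays was left out, and for Per2, Tgfbi, Krt7 and Cnn1 also with those 14 arrays alone.

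By group, 10 of the 26 cell division genes, 9 of the 19 cholesterol synthesis genes and 4 of the 25 contractile genes differed from their mucosa effect. The share over all genes was 1.87%. These groups were singled out for their culture differences, which are part of the tested value, so a raised share was built in. Ccna2 differed by 2.62 (limma adjusted p = 0.00582), with 0.21 in mucosa, but not without the first control array (adjusted p = 0.0552). Serpina3n was the gene of largest fall in cultures and had -1.19 in mucosa, which did not pass (adjusted p = 0.446), and its difference of -2.86 (limma adjusted p = 0.0214) was lost without either control array. In the list of genes stained in mucosa by the study, chosen there on mucosa arrays, 0 of 7 were called in cultures (limma; 0 at an unadjusted p under 0.05, 0 with the lognormal-normal model), and of 8 measured genes that the study names at all its times after injury 1 was called, Nrtn.

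**Figure D5:**
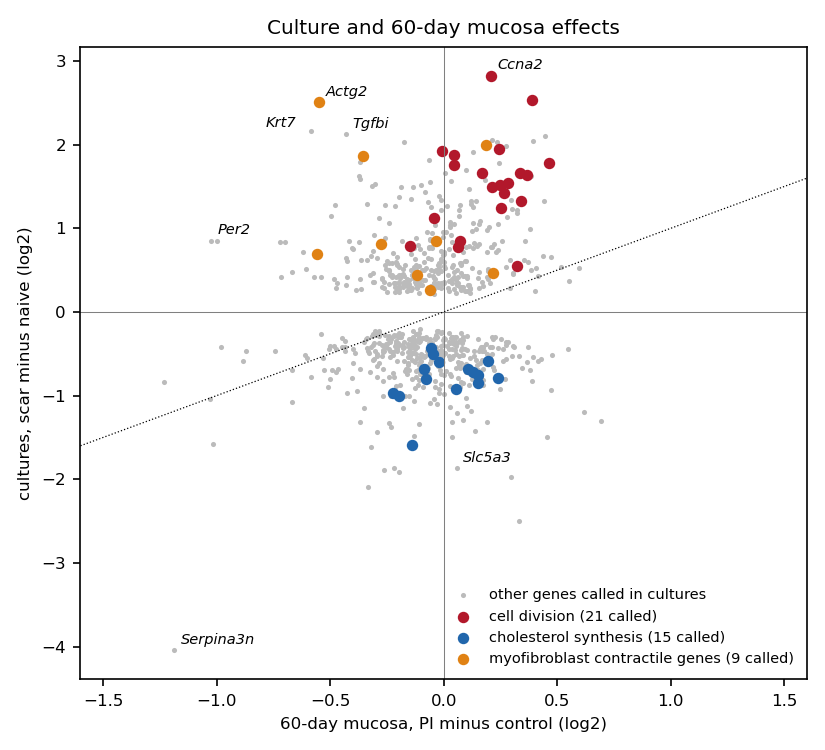
Difference between scar and naive cultures (vertical, log2) and between PI and control mucosa at 60 d (horizontal, log2) for the 778 genes called in cultures, with the line of equal effects and 3 gene groups in color. Most mucosa values lie within 0.5 of 0 while culture values reach 2.82 for Ccna2 and -4.05 for Serpina3n, and the cell division, cholesterol synthesis and contractile groups spread along the vertical axis.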

How the data were processed

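RNA of 36 samples was hybridised to Affymetrix Rat Genome arrays, and the authors deposited 1 table of log2 values made with RMA (affy), which corrects background and puts all arrays on one distribution. Sorted values differed by at most 0.03 between arrays. Of 31099 probe sets, 57 controls were left out and 20832 carried 1 gene symbol, and the probe set with the middle mean signal (of a middle pair, the brighter) stood for each of 14217 genes. Precision is limited by the number of arrays (4 scar, 3 naive). Groups came from the labels. Scar minus naive was fitted with limma 3.58.1 in R 4.3.3 over 13 culture arrays in 4 groups, with and without scar replicate 4, and checked on simulated data. The methods of the study cover mucosa, and their lognormal-normal model (20 iterations, posterior probability above 0.95) was an alternative. Members, named genes and 47 gene lists were chosen with earlier results of these data known. Named genes were the 12 largest called rises and falls without overlap, the 8 largest without scar replicate 4, the 4 most changed called members per list (where none was called, the 2 of highest mean), the study's lists, and 6 genes each way that set scar 4 apart. Figures were drawn with matplotlib 3.10.9. Scar and naive replicates share numbers. Correlations of their deviations from the group means were 0.096, 0.119 and 0.139 for equal replicate numbers. For equal numbers in the sample names they were 0.125, -0.031 and -0.273, and the highest of all was 0.398, for scar 4 with naive 2. With so few arrays per group these values cannot tell whether the replicates were paired, and the fit was not blocked.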

Additional observations from a re-analysis of the deposited data

Results flagged for a closer look

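Of 94 genes looked at, 6 had 1 scar culture set apart from the other scar cultures by more than the critical ratio of gap to range for 4 samples. Chance sets apart about 1 in 20 such groups, and 4.96% of all genes were set apart. The gap ratio was 0.91 for Acta2, with scar 4 low. It was 0.866 for Igfbp5, 0.922 for Aqp1, 0.909 for Myo7b and 0.903 for Apoe, with scar 4 high in each. It was 0.844 for Stat2, with scar 1 low. Over all genes, scar 4 was the culture set apart for 247 genes, against 190 for scar 1, 140 for scar 2 and 128 for scar 3.

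For 37 of the 94 genes looked at, the culture effect differed from the effect in 60 d mucosa (limma, adjusted p under 0.05). Over all genes this was so for 266 (1.87%). Many of the 94 were chosen for a large culture difference, which is part of the tested value, so a raised share was built in. Among cell cycle genes the difference, culture effect minus mucosa effect on the log2 scale, was 2.62 for Ccna2, 2.14 for Mki67, 1.70 for Ttk, 1.93 for Ccnb2, 1.84 for Pclaf, 1.66 for Kif20b, 1.54 for Hmmr, 1.71 for Uhrf1 and 1.71 for Cdk1. Among lipid synthesis genes it was -1.46 for Tm7sf2, -0.81 for Mvd, -0.98 for Sc5d, -1.82 for Scd and -1.50 for Acss2. Genes of contraction, matrix and adhesion gave 3.06 for Actg2, 2.22 for Cnn1, 2.75 for Krt7, 2.56 for Tgfbi, 2.21 for Plau, 1.80 for Mpzl2, 0.89 for Col14a1, 1.30 for Has2, 0.99 for Sdc1 and 1.04 for Ltbp2. Regulators gave 1.49 for Nog, 0.83 for Msx1, 1.88 for Per2 and -0.75 for Bnc2. Falls in cultures gave -2.86 for Serpina3n, -2.83 for Igfbp5, -1.76 for Cpxm2, -2.27 for H4f3, -1.93 for Slc5a3, -1.65 for Aqp1, -1.29 for Trpc4, -1.43 for Myo7b and -3.02 for Cldn11. Cldn11, Ltbp2 and Bnc2 were not called between scar and naive cultures with all 7 arrays. Ltbp2, a matrix protein that binds latent growth factor complexes, and Bnc2, a zinc finger factor of mesenchyme, were called in mucosa (-0.83 with limma adjusted p = 0.0143, and 0.69 with adjusted p = 0.00823) and had 0.21 and -0.07 in cultures. With the 14 arrays of these groups alone, 19 genes were called, among them Cnn1, Krt7, Tgfbi, Nog, Per2, Ltbp2 and Acss2.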

How the results depend on the processing

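No named gene that was called turned direction under the alternatives. Of 1865 values of named genes, 1491 kept their side of the threshold, 350 lost a call and 24 gained one. Among the 778 called genes, at most 10 turned sign under any 1 alternative. The number of genes called was 131 with the 7 arrays alone and 491 with those less scar replicate 4, 430 with scar, naive and scramble siRNA arrays, 1249 with array weights, 175 with the lognormal-normal model and 325 with that model without scar replicate 4. Leaving out 1 array gave 189 to 1303 genes. The fits behind 491, 430 and 325 were chosen after seeing the data. Quantile normalization again gave 323 higher and 463 lower. For the difference from the mucosa effect, 19 genes were called with the 14 arrays alone, and leaving out 1 array gave 39 to 531. With a replicate block, by replicate number or by the number in the sample names, limma called 0 genes (2758 and 2234 at an unadjusted p under 0.05). No label says that the numbers mark a shared rat or day. Background correction could not be varied, since the arrays were available here as RMA values only. The causes were not tested.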

Other observations

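A pair of gene lists was drawn up after the values were seen and is given as description only, without a test of the lists. With the values known, raised shares in these lists may be built in. Over all genes, 2.84% were called lower in scar cultures (4.38% without scar replicate 4), and the median difference was 0.02. The culture effect differed from the mucosa effect for 1.87% of all genes. Of 17 genes of fatty acid synthesis and its regulators, 8 were called lower and 0 higher in scar cultures (9 and 0 without scar replicate 4), with 15 negative differences and a median of -0.40, and 5 differed from their effect in mucosa. Acss2, which makes acetyl-CoA from acetate, had 10.29, 9.79, 9.83 and 10.42 in scar cultures, against 11.44, 11.41 and 11.33 in naive cultures. Every scar culture was below the naive cultures, and the difference in Acss2 was -1.31 (SE 0.14, limma adjusted p = 0.00144). Scd, the stearoyl-CoA desaturase, had 10.96, 10.45, 10.49 and 11.00 in scar cultures, against 11.83, 11.82 and 12.13 in naive cultures. The groups did not overlap, and the difference in Scd was -1.20 (SE 0.15, limma adjusted p = 0.00252).

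Of 44 measured genes of lysosomal enzymes and membrane proteins, 16 were called lower and 0 higher (25 and 0 without scar replicate 4), with 42 negative differences and a median of -0.26, and 1 differed from its effect in mucosa. Naglu, which degrades heparan sulfate, had 9.52, 9.30, 9.55 and 9.87 in scar cultures, against 10.52, 10.55 and 10.50 in naive cultures. The naive cultures agreed within 0.05, and the difference in Naglu was -0.97 (SE 0.11, limma adjusted p = 0.00173). Gpnmb, a glycoprotein of lysosomes and the cell surface, averaged 12.79 ± 0.22 in scar and 13.48 ± 0.04 in naive cultures (SD, n = 4 and 3, limma adjusted p = 0.00619). The calls of Acss2, Scd, Naglu and Gpnmb were kept whichever array was left out.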
